A study of Homo sapiens with 8 samples.

Results

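HEK293T cells treated with sodium arsenite and given an siRNA against eIF2A were compared with arsenite-treated HEK293T cells given a control siRNA. The comparison used 4 of the 8 RNA-seq libraries of the series, taken by their labels, namely set 1 and set 2 of each siRNA. HEK293T is a human embryonic kidney line that carries a viral large T antigen. Sodium arsenite was common to both groups, so the values below are differences between 2 siRNAs in stressed cells, and no effect of arsenite itself was measured. The arsenite dose and duration, the siRNA sequences and the transfection are not stated in the sources used, and neither is whether the 2 sets came from separate cultures. The p-values therefore measure only the spread between these libraries, which may be technical. The series asks how the nuclear cap-binding complex supports protein synthesis and growth under stress, and eIF2A knockdown is among its perturbations. Polyadenylated RNA was sequenced after TRIzol extraction with a stranded mRNA kit.

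Translation normally starts when eIF2 brings initiator tRNA to the small ribosomal subunit. Arsenite activates kinases that phosphorylate the alpha subunit of eIF2, which shuts down most initiation and leads to stress granules, while the transcription factors ATF4, NRF2 and HSF1 drive stress genes. The EIF2A gene encodes a different, single-chain protein that can also bind initiator tRNA and has been linked to initiation when eIF2 is inactive. RNA-seq reads transcript levels and not translation, so the comparison shows what knockdown left in the polyadenylated RNA pool. In such bulk samples fewer cells of a state and less RNA per cell cannot be told apart.

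The libraries held 22844053 to 32318668 gene counts each. Values are given as CPM, read counts scaled to the effective library size. Longer transcripts collect more reads, so CPM is compared between libraries and orders genes by reads, not by molecules. The share of reads outside counted features was 15.59 and 17.68% with control siRNA against 14.98 and 14.95% with eIF2A siRNA. The control pair stood farther apart than the eIF2A siRNA pair, with a root mean square log2 difference of 0.107 against 0.079 over genes of at least 10 CPM, and libraries of different groups differed by 0.203 to 0.212. Across 13234 genes, which are not independent, Spearman rho between the log2 fold change and GC content was -0.11, and with transcript length it was -0.11. The part of these differences in the results was not tested, apart from fits with each library left out and after removal of the GC and length trend. All 12 HEK293T-associated markers were expressed, with VIM, KRT8 and KRT18 called higher and NEFM lower with eIF2A siRNA (summed 1092 and 1132 CPM with control siRNA, 1289 and 1306 CPM with eIF2A siRNA). Of 10 pluripotency markers 8 had a mean under 1 CPM, with NANOG, L1TD1 and DPPA4 at 0 in all 4 libraries. DNMT3B was at 129.1 to 144.0 CPM and SALL4 at 20.27 to 23.51 CPM. The summed levels were 3.22 to 3.71 CPM for blood markers, 0.81 to 1.31 CPM for endothelium and liver and 38.14 to 40.05 CPM for fibroblasts.

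The targeted transcript was 3.1-fold lower with its siRNA. EIF2A measured 17.5 and 18.2 CPM with control siRNA and 5.57 and 5.98 CPM with eIF2A siRNA. Both knockdown libraries lay far below both controls, with a log2 fold change of -1.63 ± 0.097 (SE, n = 2 libraries a group; adjusted p = 7.9e-10 by the quasi-likelihood test of edgeR with Benjamini-Hochberg adjustment, the test behind every adjusted p not credited to DESeq2), which leaves 32.3% of the control level.

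Knockdown went with many small changes and few large ones. Of 13294 genes tested, 3679 (27.7%) were called at an adjusted p under 0.05, 1845 higher (13.9%) and 1834 lower (13.8%), and 1755 of the calls were of less than 1.2-fold. Only 78 genes (0.587%) were called with a change of at least 2-fold, 38 higher and 40 lower, and 76 of these had a mean under 10 CPM. Among the 2180 genes of at least 100 CPM, which held 77.5% of the scaled reads, 1052 (48.3%) were called, 513 higher (23.5%) and 539 lower (24.7%), yet 6 reached 1.5-fold and 0 reached 2-fold. The groups did not overlap for 8266 genes (62.2%), among them every called gene. DESeq2 called 2150 genes and 2 of at least 2-fold. Without eIF2A siRNA set 1 the count was 2143 and without eIF2A siRNA set 2 it was 2287.

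**Figure D1:**
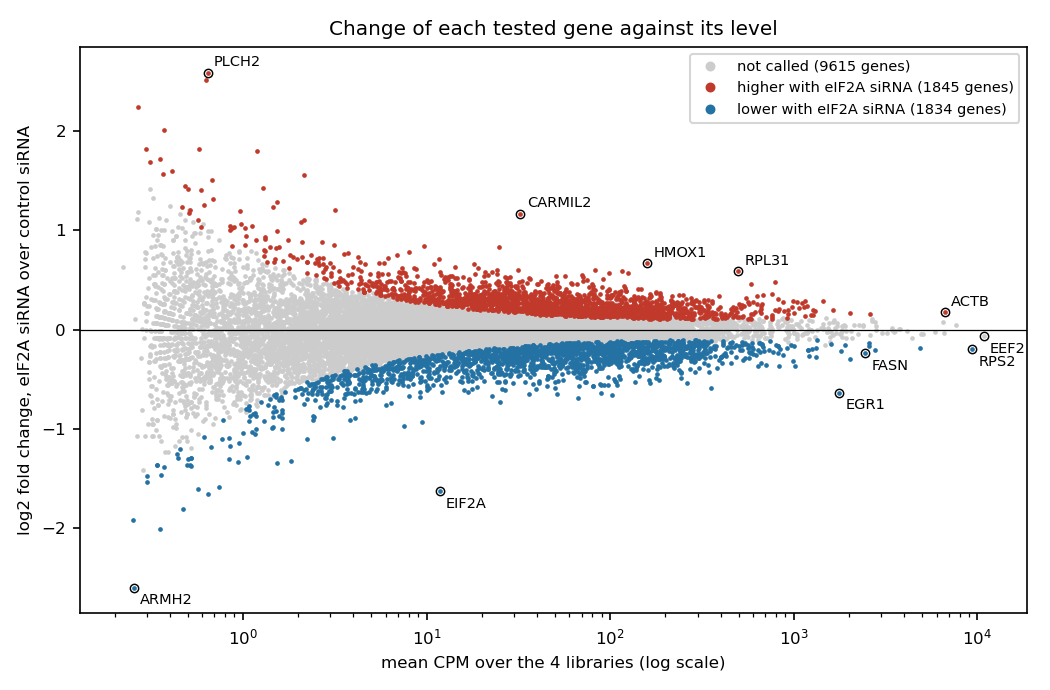
Log2 fold change of each tested gene (y axis, eIF2A siRNA over control siRNA) against its mean CPM over the 4 libraries (x axis, log scale), with 1845 genes called higher in red, 1834 called lower in blue and the others in grey. The changes of at least 2-fold lie almost all under 10 CPM, with EIF2A and CARMIL2 above it, and the genes of at least 1000 CPM lie close to 0.

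The most abundant transcripts moved little. Of the 10 genes with the highest CPM, ACTB rose and RPS2 and RPLP0 fell, all by less than 1.2-fold, and the other 7 were not called. Cytoplasmic beta-actin (ACTB) measured 6239 and 6212 CPM with control siRNA and 7039 and 7002 CPM with eIF2A siRNA, a log2 fold change of 0.17 ± 0.040 (adjusted p = 0.0023). The small-subunit ribosomal protein gene RPS2 measured 9359 and 10662 CPM with control siRNA against 8879 and 8601 CPM, and RPLP0, a ribosomal stalk protein, 5136 and 5188 CPM against 4474 and 4594 CPM. The groups did not overlap for any of these genes, but the spread of the RPS2 controls was wide, and the log2 fold changes were -0.20 ± 0.050 and -0.19 ± 0.040 (adjusted p = 0.0053 and 0.0012). ACTB lost its call without either eIF2A siRNA library (adjusted p = 0.10 without set 1 and 0.079 without set 2), RPLP0 without set 1 (adjusted p = 0.11) and RPS2 without set 2 (adjusted p = 0.098) and with DESeq2 (adjusted p = 0.15). The elongation factors EEF2, EEF1A1 and EEF1G had log2 fold changes of -0.07 ± 0.041, 0.04 ± 0.040 and -0.05 ± 0.042 (adjusted p = 0.22, 0.46 and 0.43). For the glycolytic genes GAPDH and ENO1 the values were -0.03 ± 0.040 and -0.03 ± 0.039, for the ribosome-associated scaffold RACK1 -0.04 ± 0.040 and for ACTG1, the gamma-actin gene, 0.08 ± 0.041 (adjusted p = 0.60, 0.68, 0.46 and 0.18). Of the 124 genes of at least 1000 CPM, 37 (29.8%) were called, 17 higher and 20 lower.

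Among genes of at least 100 CPM, 3 rose and 3 fell by at least 1.5-fold. The heme-degrading enzyme HMOX1, a standard NRF2 target, measured 128 and 119 CPM with control siRNA and 196 and 196 CPM with eIF2A siRNA (log2 fold change 0.67 ± 0.043, adjusted p = 2.8e-09). CCN1, a secreted matricellular protein gene, went from 94.0 and 91.4 CPM to 141 and 138 CPM, and RPL31, a large-subunit ribosomal protein gene, from 410 and 387 CPM to 601 and 599 CPM, each with a log2 fold change of 0.59. The eIF2A siRNA libraries of these genes lay close together and above both controls. Among the falls, the immediate early transcription factor EGR1 went from 2026 and 2276 CPM to 1381 and 1391 CPM (-0.63 ± 0.047, adjusted p = 8.7e-09), and BOP1, a ribosome biogenesis factor, from 436 and 410 CPM to 278 and 285 CPM (-0.59 ± 0.041). Again the groups were far apart.

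**Figure D2:**
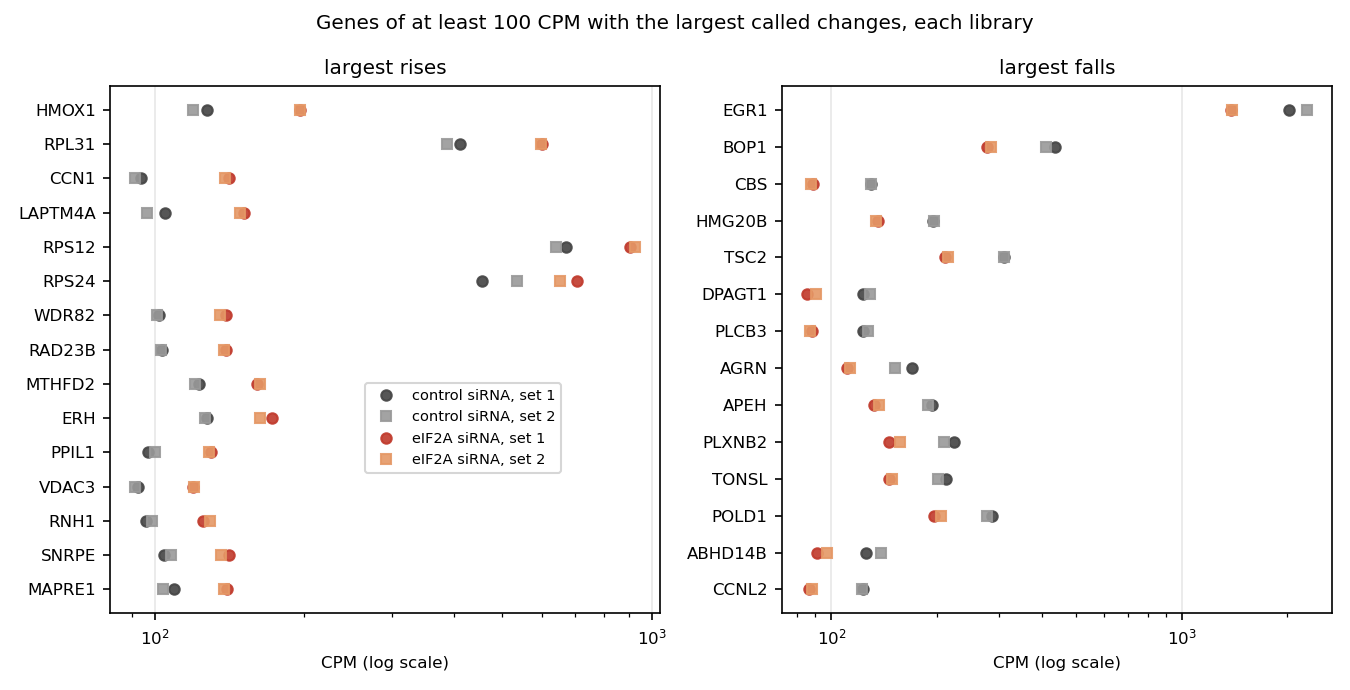
CPM (x axes, log scale) of 15 genes with the largest called rises and 14 of those with the largest called falls among genes of at least 100 CPM, 1 point per library (dark and light grey, control siRNA sets 1 and 2; red and orange, eIF2A siRNA sets 1 and 2). In each of the 29 genes both eIF2A siRNA points lie on the same side of both control points, as the choice of these genes required. HMOX1 and EGR1 stand at the top of the 2 panels.

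The other largest rises among abundant genes had log2 fold changes of 0.38 to 0.57. They were LAPTM4A, a lysosomal membrane protein gene, the ribosomal protein genes RPS12 and RPS24, the RNA polymerase II and phosphatase adaptor WDR82, the repair and proteasome shuttle factor RAD23B, ERH, the mitochondrial folate enzyme MTHFD2, the spliceosomal proteins PPIL1 and SNRPE, the microtubule end-binding protein MAPRE1, the ribonuclease inhibitor RNH1 and the mitochondrial channel VDAC3. RPS12 measured 671 and 642 CPM with control siRNA and 903 and 926 CPM with eIF2A siRNA. The other largest falls, of 0.49 to 0.56 on the log2 scale, were in CBS of transsulfuration, the growth inhibitor TSC2, the chromatin protein HMG20B, DPAGT1, which starts N-glycan assembly, the extracellular proteoglycan AGRN, the phospholipase PLCB3, the semaphorin receptor PLXNB2, APEH, CCNL2, ABHD14B, the DNA polymerase delta subunit POLD1 and the replication repair factor TONSL. TSC2, which restrains the growth kinase complex mTORC1, went from 311 and 311 CPM to 212 and 215 CPM. Unless another value is given beside it, each gene named as risen or fallen from here on kept its call at the 0.05 threshold in every alternative fit that gave it an adjusted p, those with 1 library left out included.

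Ribosomal protein genes were uneven. Of 50 tested genes of the large subunit 17 rose and 2 fell, with a median log2 fold change of 0.02, and of 33 of the small subunit 11 rose and 2 fell, also with a median of 0.02, against -0.005 over all genes tested. RPL5, of the 5S ribonucleoprotein, measured 1246 and 1356 CPM with control siRNA and 1610 and 1556 CPM with eIF2A siRNA (log2 fold change 0.28 ± 0.043). RPS24 went from 456 and 536 CPM to 707 and 652 CPM (0.45 ± 0.065), with the libraries of each group spread more widely than in RPL31. Which control was used moved these counts. Without control set 1, 17 genes of the large subunit rose and 14 fell, and 14 of the small subunit rose and 9 fell, whereas without control set 2 the counts were 25 and 2 for the large subunit and 18 and 3 for the small. Without eIF2A siRNA set 1 they were 9 and 0 and 8 and 1, and without set 2 they were 11 and 1 and 7 and 0. With the GC and length trend taken out 9 rose and 7 fell in the large subunit (median -0.02) and 8 rose and 4 fell in the small (median -0.01). Ribosomal protein genes have many near-identical processed copies in the genome, and reads shared with those copies could have been lost or split in counting. Of mitochondrial ribosomal protein genes 35.5% were called, and 37 of the 76 tested had at least 100 CPM. The 76 tested mitochondrial ribosomal protein genes gave 22 higher and 5 lower (median 0.06), with MRPS7 at 0.26 ± 0.043 and MRPS34 at -0.28 ± 0.044, but 16 higher and 12 lower with the GC and length trend taken out, 13 and 3 without eIF2A siRNA set 1 and 23 and 10 without control set 1.

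Initiation factors moved in both directions by family. Of the eIF3 list 38.5% were called and of the eIF2 list described below 39.1%, against 27.7% of all genes. At 100 CPM and up, where 9 of the 13 and 8 of the 23 genes lie, 48.3% of all genes were called. None of the 13 subunits of eIF3, the scaffold that recruits mRNA to the small ribosomal subunit, rose and 5 fell (median -0.09). EIF3G measured 584 and 662 CPM with control siRNA and 515 and 507 CPM with eIF2A siRNA (-0.29 ± 0.048). The other 4 calls were smaller, and without eIF2A siRNA set 2 the count of eIF3 subunits lower was 1, without set 1 it was 2 and with DESeq2 it was 2. Among 23 factors of eIF2, its exchange factor eIF2B and start site selection 4 rose and 5 fell (median 0.06). EIF2D, which like EIF2A can deliver tRNA without eIF2, measured 176 and 179 CPM with control siRNA and 141 and 140 CPM with eIF2A siRNA, with no overlap (-0.33 ± 0.041, adjusted p = 4.3e-06). EIF2S3, the gamma subunit of eIF2, rose by 0.21 ± 0.040 and EIF2B2 of its exchange factor fell by 0.21 ± 0.042 on the log2 scale. EIF2S1, the subunit that stress kinases phosphorylate, measured 31.6 and 34.6 CPM against 37.0 and 37.8 CPM (0.17 ± 0.062, adjusted p = 0.045). This call was lost without control set 1, eIF2A siRNA set 1 or eIF2A siRNA set 2. The call was also lost with DESeq2 (adjusted p = 0.16), after removal of the GC and length trend (0.10) and with upper-quartile scaling (0.060). At the stricter filter it was kept, just under the threshold (0.050).

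Cap-binding, eIF4F and related factors, listed together, gave more rises than falls, 10 against 3 of 27 (48.1% called, median 0.09). Of the 27, 15 had at least 100 CPM, where 48.3% of all genes were called. After removal of the GC and length trend the count was 6 against 3, and fewer were called without either eIF2A siRNA library. The RNA helicase cofactor EIF4H rose by 0.22 ± 0.039 and the exon junction helicase EIF4A3 by 0.20 ± 0.040. NCBP1, the larger protein of the nuclear cap-binding complex named in the series title, measured 19.4 and 18.7 CPM with control siRNA and 22.1 and 21.9 CPM with eIF2A siRNA (0.21 ± 0.073, adjusted p = 0.036). That call was lost without control set 2 (adjusted p = 0.12), eIF2A siRNA set 1 (0.18) or eIF2A siRNA set 2 (0.14), with DESeq2 (0.17) and after removal of the GC and length trend (0.090). Its partner NCBP2 (23.1 and 24.3 against 25.5 and 24.9 CPM, 0.08 ± 0.068, adjusted p = 0.41) and EIF4E, the cytoplasmic cap-binding protein (15.3 and 15.6 against 17.2 and 17.5 CPM, 0.17 ± 0.079, adjusted p = 0.13), were not called. Of 18 elongation and release factors 3 rose and 2 fell, 27.8% called against 27.7% of all genes, with rises in EEF1B2 (0.25 ± 0.044) and TPT1, a translationally controlled tumour protein that binds elongation factors (1012 and 1063 against 1282 and 1254 CPM, 0.29 ± 0.040). Among 37 aminoacyl-tRNA synthetases 8 rose and 5 fell (35.1% called), with QARS1 at -0.43 ± 0.039, YARS1 at 0.22 ± 0.038 and KARS1 at 0.27 ± 0.040.

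Genes for folding in the endoplasmic reticulum fell together at high level. Of 29 tested 13 fell and 2 rose (median -0.13), and of the 16 with at least 100 CPM 12 fell and 0 rose. Over all genes 13.8% were called lower, and 24.7% of those of at least 100 CPM. The list's summed level was 10690 and 11145 CPM with control siRNA and 9590 and 9525 CPM with eIF2A siRNA. The disulfide isomerase P4HB measured 2245 and 2207 CPM with control siRNA and 1796 and 1836 CPM with eIF2A siRNA (-0.29 ± 0.039, adjusted p = 1.2e-05). HYOU1, an exchange factor and chaperone of the compartment, went from 717 and 721 CPM to 559 and 552 CPM (-0.37 ± 0.039, adjusted p = 7.2e-07). In both genes the 2 controls were nearly equal and the 2 knockdown libraries clearly below them. The calcium-binding lectin chaperone CALR went from 2774 and 3182 CPM to 2592 and 2572 CPM (-0.21 ± 0.049, adjusted p = 0.0034), and with DESeq2 it was not called (adjusted p = 0.12).

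The remaining abundant members of that list are given whatever their size, although the choice to give them all was made after their values were seen. The chaperones HSP90B1 (-0.32 ± 0.044) and CRELD2 (-0.29 ± 0.044), the secreted survival factor MANF (-0.28 ± 0.052) and HERPUD1 of the degradation complex (-0.28 ± 0.044) fell. PPIB (-0.19 ± 0.039), PDIA4 (-0.19 ± 0.039), XBP1 (-0.16 ± 0.040), HSPA5 (-0.14 ± 0.039) and SDF2L1 (-0.13 ± 0.046) fell too, but lost their calls without eIF2A siRNA set 2, with adjusted p = 0.079, 0.058, 0.10, 0.19 and 0.42. Without eIF2A siRNA set 1, XBP1 (adjusted p = 0.10), HSPA5 (0.17) and SDF2L1 (0.085) were not called either, and SDF2L1 was not called without control set 1 (0.097), with DESeq2 (0.14), after removal of the GC and length trend (0.26) or with set as a replicate block (0.056). CANX and TXNDC5 were not called (-0.06 ± 0.038 and 0.08 ± 0.039), nor were PDIA3 and PDIA6. Over the whole list, 12 fell without control set 1 and 12 without control set 2, 9 fell without eIF2A siRNA set 1 and 7 without eIF2A siRNA set 2.

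The promoters of this list are shown because 5 of the 13 genes that fell carry the endoplasmic reticulum stress element, the letters CCAAT and CCACG separated by 9 bases, read by the stress sensor ATF6 with the CCAAT-binding factor NF-Y. The element was searched on both strands in the 250 bases before each start in the RefSeq promoter table (GRCh38.p14), where 28 of the 29 genes were found. It was present in 7 of these 28 promoters, namely 5 of 13 that fell, 2 of 13 not called (CANX and ERO1B) and 0 of 2 that rose, and in 0.0806% of all 27305 promoters of the table. The members were listed as stress genes of this compartment, so the element's share in the list describes the list and says nothing of binding. Capitals mark the match on either strand, and HSP90B1 has 2 matches, of which the nearer to the start is shown. The windows lie at chr19:12938359-12938427 (plus strand) for CALR, chr9:125241366-125241434 (minus strand) for HSPA5, chr12:103930296-103930364 (plus strand) for HSP90B1, chr22:49918529-49918597 (plus strand) for CRELD2 and chr22:28800578-28800646 (minus strand) for XBP1, with the matches 225, 66, 89, 80 and 52 bases before the start.
CALR: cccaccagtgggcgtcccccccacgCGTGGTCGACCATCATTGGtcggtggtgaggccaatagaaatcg
HSPA5: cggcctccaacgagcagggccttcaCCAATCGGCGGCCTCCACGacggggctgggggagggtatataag
HSP90B1: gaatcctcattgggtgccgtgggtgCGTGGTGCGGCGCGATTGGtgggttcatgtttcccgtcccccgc
CRELD2: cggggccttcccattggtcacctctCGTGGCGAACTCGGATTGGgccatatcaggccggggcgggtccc
XBP1: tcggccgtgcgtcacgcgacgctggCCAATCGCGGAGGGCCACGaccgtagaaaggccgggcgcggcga

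The chaperone families were mixed. Of 20 tested HSP70 and HSP110 genes and partners 7 fell and 4 rose (median -0.15), of 40 J-domain proteins 6 fell and 7 rose (median 0.07), and of 22 HSP90 genes and partners 6 fell and 5 rose (median 0.02). The first of these lists shares HSPA5 and HYOU1, and the last HSP90B1, with the endoplasmic reticulum list, so those falls are counted in both. Over all genes 27.7% were called, 13.9% higher and 13.8% lower. At 100 CPM and up, where 7 HSP70 list, 7 J-domain and 16 HSP90 list genes lie, 48.3% of all genes were called. DNAJB1, a heat-inducible cochaperone, measured 505 and 514 CPM with control siRNA and 406 and 398 CPM with eIF2A siRNA (-0.34 ± 0.039, adjusted p = 2.1e-06). The mitochondrial HSP90 gene TRAP1 went from 1093 and 1184 CPM to 887 and 877 CPM (-0.37 ± 0.042), and the HSP90 cochaperone PTGES3 from 249 and 251 CPM to 301 and 299 CPM (0.26 ± 0.039). HSPA8, the constitutive HSP70, measured 2353 and 2588 CPM against 2775 and 2716 CPM (0.15 ± 0.044, adjusted p = 0.013), a call lost without eIF2A siRNA set 1 (adjusted p = 0.20) or set 2 (0.091) and after removal of the GC and length trend (0.18). The inducible HSP70 gene HSPA1A held 1 count in control set 2 and 0 in the other libraries, and its near-identical neighbour HSPA1B, chosen after its values were seen, measured 12.5 and 13.2 CPM with control siRNA and 8.31 and 9.20 CPM with eIF2A siRNA (-0.56 ± 0.097). How reads that fit both copies were counted is not stated, so both values are uncertain. Of the 18 TRiC and prefoldin genes, which fold actin and tubulin, 7 rose and 2 fell (median 0.10), with CCT4 at 0.28 ± 0.039. Without eIF2A siRNA set 1, 4 of them rose and 1 fell. Of the 18, 12 had at least 100 CPM, where 48.3% of all genes were called.

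Sterol genes were the list with the largest share of calls among those examined, 71.4% of 28 tested, against 27.7% of all genes. At 100 CPM and up 48.3% of all genes were called. The lists were written with earlier results of these data known, so this rank does not stand apart from those results. Of the 28, 16 fell and 4 rose (median -0.20). Of the 11 with at least 100 CPM 10 fell and 1 rose, where 24.7% of all genes at that level fell and 23.5% rose. Of the 11 abundant members 9 are described, a choice made after their values were seen, and all 9 fell. The 1 abundant member that rose is among those not reported. INSIG1, which retains the sterol sensor in the endoplasmic reticulum and is itself a sterol-regulated gene, measured 210 and 207 CPM with control siRNA and 152 and 154 CPM with eIF2A siRNA (-0.45 ± 0.040, adjusted p = 1.2e-07). SREBF2, the transcription factor that drives sterol genes, went from 260 and 252 CPM to 207 and 212 CPM (-0.29 ± 0.040, adjusted p = 1.6e-05). In both regulatory genes the groups did not overlap, as in every called gene.

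Among the enzymes of the pathway, lanosterol synthase LSS (-0.33 ± 0.044), farnesyl diphosphate synthase FDPS (-0.26 ± 0.039), DHCR7 (-0.23 ± 0.042) and EBP (-0.21 ± 0.042) fell. FDFT1 (-0.17 ± 0.040), SCAP (-0.16 ± 0.040), the sterol sensor that INSIG1 retains, and NSDHL (-0.15 ± 0.043) fell as well. FDFT1, SCAP and NSDHL lost their calls without eIF2A siRNA set 1, and SCAP and NSDHL also without set 2. SCAP was not called after removal of the GC and length trend either (adjusted p = 0.31), nor NSDHL with DESeq2 (adjusted p = 0.069). Below 100 CPM, MVD (-0.38 ± 0.047), HMGCS1 (-0.35 ± 0.074), IDI1 (-0.32 ± 0.064), SREBF1 (-0.28 ± 0.048) and SQLE (-0.22 ± 0.049) fell, and PMVK (0.28 ± 0.054) and LBR (0.26 ± 0.057) rose. These were likewise chosen after their values were seen. Without control set 1 the sterol list gave 16 lower and 4 higher, without control set 2 16 and 3, without eIF2A siRNA set 1 12 and 3, and without eIF2A siRNA set 2 13 and 2. With the GC and length trend taken out it gave 15 and 3, with the same median of -0.20.

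Fatty acid and phospholipid genes gave 9 lower and 3 higher of 30 (median -0.02), and of the 8 with at least 100 CPM 5 fell and 0 rose. The shares over all genes were 13.8% lower and 13.9% higher, and 24.7 and 23.5% at 100 CPM and up. Fatty acid synthase FASN measured 2727 and 2577 CPM with control siRNA and 2221 and 2283 CPM with eIF2A siRNA, with no overlap (-0.24 ± 0.041, adjusted p = 0.00019). With the GC and length trend taken out its log2 fold change was -0.05 (adjusted p = 0.39). The phosphatidylserine synthase PTDSS1 fell by 0.21 ± 0.039 and the desaturase FADS2 by 0.25 ± 0.045 on the log2 scale. SCD, another desaturase, fell by 0.17 ± 0.039 on the log2 scale (adjusted p = 0.0031), a call lost without eIF2A siRNA set 1 (adjusted p = 0.080) or set 2 (0.11). DGAT2, which makes triacylglycerol, rose from 8.89 and 8.81 CPM to 13.8 and 15.2 CPM (0.71 ± 0.094).

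**Figure D3:**
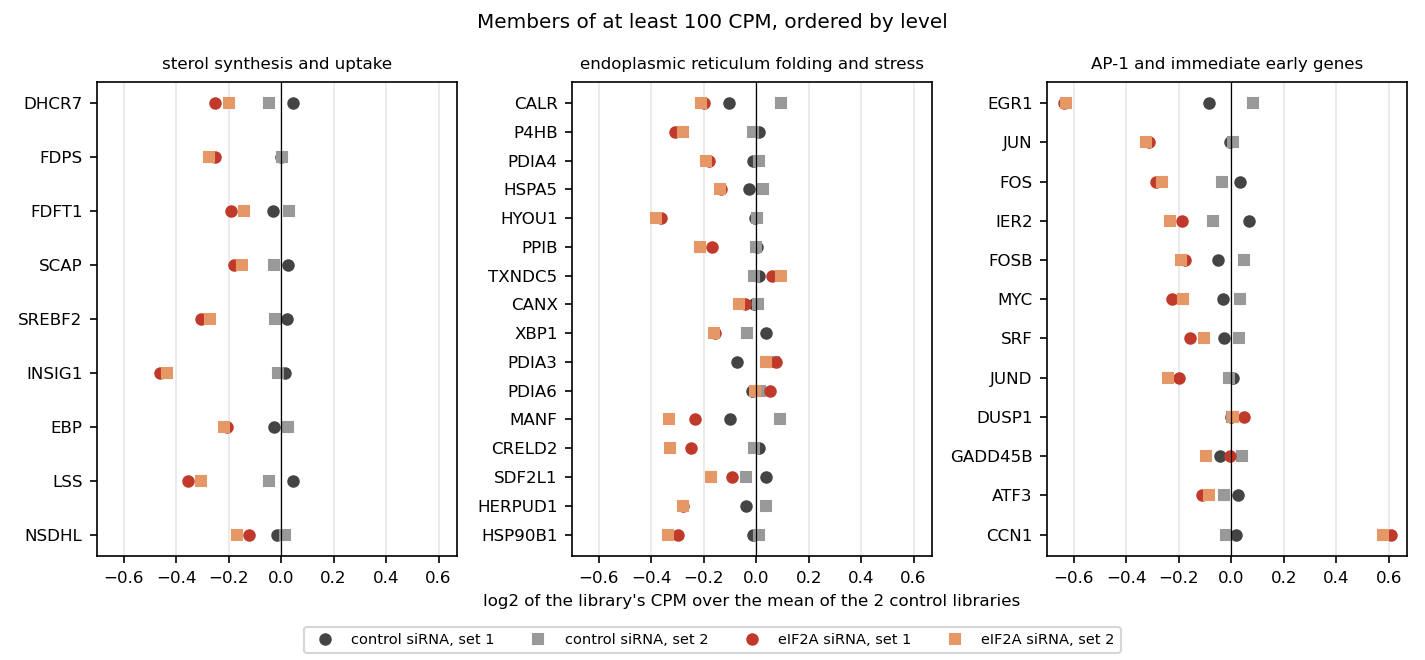
Log2 ratio of each library's CPM to the mean of the 2 control libraries (x axes) for 9 of the 11 members of at least 100 CPM of the sterol list, which leaves out the 1 that rose, and for all such members of the endoplasmic reticulum (16 genes) and immediate early (12 genes) lists, ordered by level (greys, control siRNA; red and orange, eIF2A siRNA). The eIF2A siRNA points lie left of the control points for the 9, 12 and 8 genes called lower, and those of CCN1 lie to the right.

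Immediate early genes, which mitogens and stress switch on within minutes, split by level. Over 37 tested genes 9 fell and 9 rose (median -0.00), but of the 12 with at least 100 CPM 8 fell and 1 rose, where 24.7% of all genes at that level fell and 23.5% rose. The AP-1 subunit JUN measured 1097 and 1106 CPM with control siRNA and 886 and 880 CPM with eIF2A siRNA (-0.32 ± 0.039, adjusted p = 3.9e-06), and its partner FOS went from 544 and 518 CPM to 435 and 442 CPM (-0.28 ± 0.040, adjusted p = 2.9e-05). MYC, the growth-promoting transcription factor, went from 294 and 308 CPM to 258 and 265 CPM (-0.21 ± 0.040, adjusted p = 0.00059). In each the knockdown libraries lay below both controls, by less in MYC than in EGR1. Among the other abundant members, chosen after their values were seen, IER2 fell by 0.21 ± 0.044 and JUND by 0.22 ± 0.040 on the log2 scale. FOSB fell by 0.19 ± 0.041 and SRF, which binds serum response elements, by 0.13 ± 0.042, and neither call held without eIF2A siRNA set 2 (adjusted p = 0.059 and 0.10), nor did that of SRF without set 1 (0.35), after removal of the GC and length trend (0.51), with DESeq2 (0.086) or with set as a replicate block (0.053). DUSP1, GADD45B and ATF3 had log2 fold changes of 0.03 ± 0.041, -0.05 ± 0.046 and -0.10 ± 0.043 and were not called.

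Of the 9 members that rose, 5 were matricellular genes or inhibitors of differentiation. The others, named after their values were seen, were IER5, NR4A1, GADD45A and IER5L. Their log2 fold changes were 0.14, 0.24, 0.21 and 0.27, and alternative fits are not given for them. ID3, which blocks basic helix-loop-helix factors and answers to BMP signals, went from 69.5 and 62.8 CPM to 99.7 and 99.9 CPM (0.60 ± 0.051, adjusted p = 6.2e-08). ID2 (0.54 ± 0.053), ID1 (0.49 ± 0.075) and CCN2 (0.38 ± 0.067), chosen after their values were seen, rose with ID3 and CCN1. EGR2, a relative of EGR1 at low level, went from 6.80 and 7.22 CPM to 4.58 and 4.53 CPM (-0.63 ± 0.12).

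EGR1 fell most among the immediate early genes of at least 100 CPM, so its promoter is shown. The serum response element core known as the CArG box was searched, a motif added after the values were seen, on both strands in the 250 bases before each start (RefSeq, GRCh38.p14). It was present in 1.14% of all promoters of the table and in 2 of the 26 promoters found for this list, those of EGR1 and SRF. The window at chr5:138465349-138465430 (plus strand), 105 bases before the start at its first match, holds 2 matches, in capitals.
EGR1: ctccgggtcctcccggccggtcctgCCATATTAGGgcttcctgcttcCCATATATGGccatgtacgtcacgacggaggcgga
The AP-1 element TGANTCA was present in 0 of the 26 promoters and in 6.60% of all, which says only that these letters are not in these windows.

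Antioxidant genes moved in both directions. Of the NRF2 list below 52.9% were called and of the peroxiredoxin list 43.6%. Over all genes 27.7% were called, and 48.3% of those of at least 100 CPM. Of 34 NRF2 targets and antioxidant genes 10 rose and 8 fell (median 0.04), and of the 16 with at least 100 CPM 6 rose and 4 fell. Besides HMOX1, the ferritin light chain FTL measured 606 and 606 CPM with control siRNA and 696 and 733 CPM with eIF2A siRNA (0.24 ± 0.040, adjusted p = 0.00014), and the autophagy receptor SQSTM1 went from 238 and 239 CPM to 288 and 283 CPM (0.26 ± 0.039). Thioredoxin TXN (0.24 ± 0.040) and sulfiredoxin SRXN1 (0.24 ± 0.049) rose, again chosen after their values were seen. In the same list PGD, which makes NADPH in the pentose phosphate pathway, went from 443 and 469 CPM to 380 and 383 CPM (-0.26 ± 0.040, adjusted p = 6.0e-05), and the epoxide hydrolase EPHX1 (-0.29 ± 0.045) and the small MAF proteins MAFF (-0.63 ± 0.089) and MAFG (-0.24 ± 0.049), partners of NRF2, fell. The gene for NRF2 itself, NFE2L2, measured 8.20 and 7.28 CPM with control siRNA and 7.26 and 7.16 CPM with eIF2A siRNA and was not called (-0.09 ± 0.11), and nor was the classic target NQO1 (10.6 and 10.5 against 11.6 and 12.5 CPM, 0.19 ± 0.093, adjusted p = 0.15). Among 39 peroxiredoxins, thioredoxins and glutathione enzymes 11 rose and 6 fell, with PRDX1 at 0.20 ± 0.039.

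Genes of the integrated stress response showed no common direction. Of the list 47.1% were called, against 27.7% of all genes and 48.3% of those of at least 100 CPM. The transcription factor ATF4 measured 1680 and 1765 CPM with control siRNA and 1691 and 1673 CPM with eIF2A siRNA, where the groups overlapped (-0.03 ± 0.040, adjusted p = 0.57). DDIT3, which it induces, measured 23.5 and 21.1 CPM against 25.2 and 23.8 CPM (0.14 ± 0.073, adjusted p = 0.16). Of 34 listed genes tested 10 rose and 6 fell (median -0.03). The amino acid transporter SLC7A5 rose from 965 and 910 CPM to 1118 and 1152 CPM (0.28 ± 0.041, adjusted p = 4.0e-05), the serine enzyme PSAT1 by 0.31 ± 0.040 and MTHFD2 by 0.41 ± 0.042. SHMT2, which works beside MTHFD2 in mitochondrial folate metabolism, went from 734 and 746 CPM to 585 and 583 CPM (-0.34 ± 0.039, adjusted p = 2.0e-06), and the stress sensor SESN2 fell by 0.30 ± 0.041 on the log2 scale. NUPR1 and GDF15 at low level rose from 1.61 and 2.19 to 4.48 and 4.46 CPM and from 1.35 and 1.37 to 3.29 and 2.59 CPM (2.3-fold and 2.15-fold, chosen after their values were seen). Of 27 stress granule proteins 7 rose and 1 fell, 29.6% called against 27.7% of all genes (3 and 1 without eIF2A siRNA set 1, 9 and 4 without control set 1), with the deubiquitinase USP10 at 0.26 ± 0.045.

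**Figure D4:**
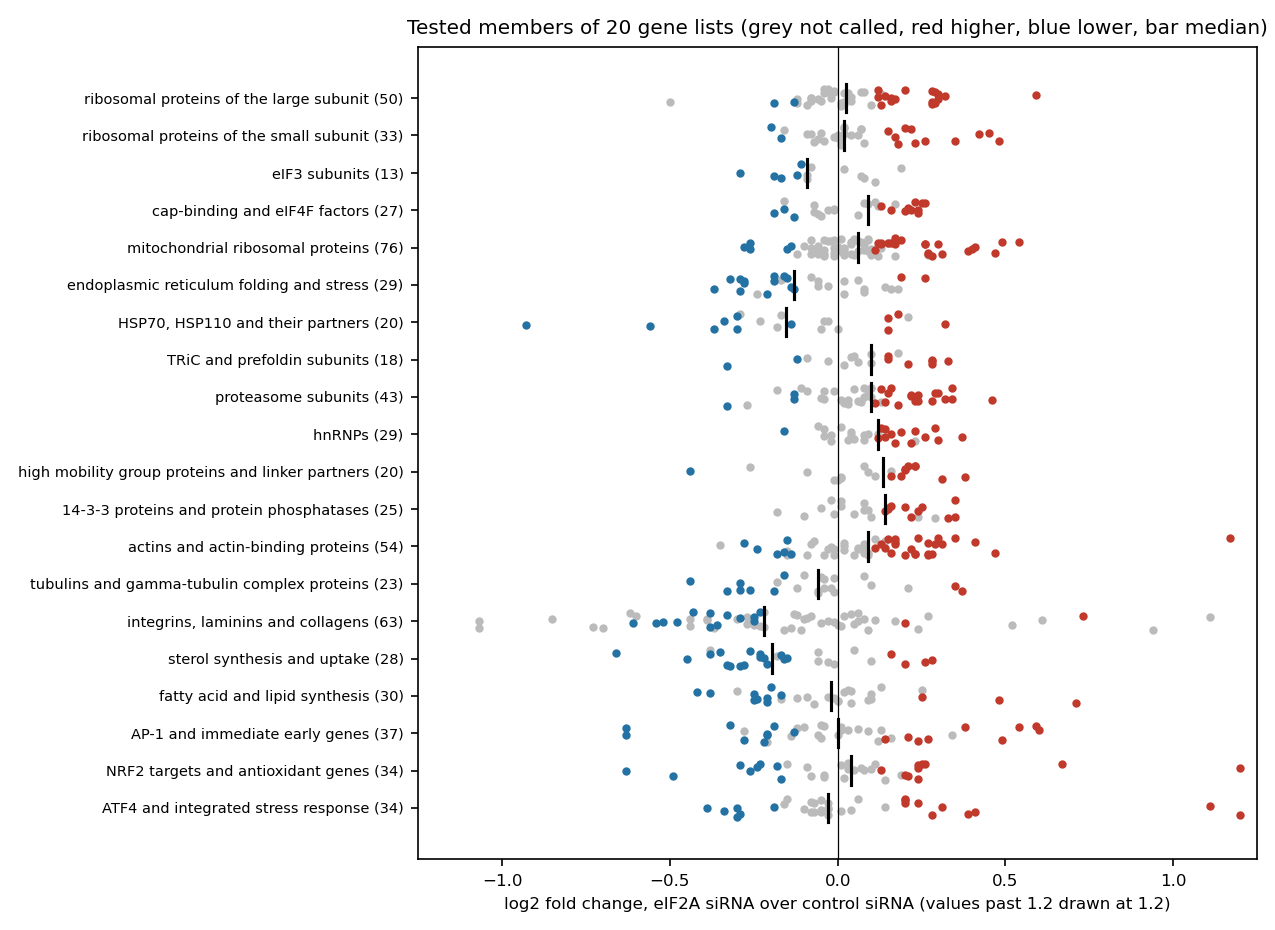
Log2 fold change (x axis, eIF2A siRNA over control siRNA) of the tested members of 20 gene lists (number tested in brackets), with members called higher in red, lower in blue and not called in grey, and a bar at each list's median. Most members lie within 0.5 of 0, and the medians of the sterol (-0.20) and integrin, laminin and collagen (-0.22) lists lie farthest below 0.

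Families of RNA-binding and chromatin proteins differed in direction. Of 29 hnRNP genes 13 rose and 1 fell (median 0.12), of 20 high mobility group and related histone chaperone genes 9 rose and 1 fell (median 0.14), and of 17 nonsense-mediated decay and exon junction factors 7 rose and 0 fell (median 0.05), against 13.9% higher and 13.8% lower over all genes and 23.5 and 24.7% at 100 CPM and up, where 20 of the hnRNP and 14 of the high mobility group genes lie. HNRNPK, an abundant nuclear RNA-binding protein, measured 572 and 570 CPM with control siRNA and 680 and 684 CPM with eIF2A siRNA (0.26 ± 0.038, adjusted p = 3.9e-05). RBM8A, a core exon junction protein, rose by 0.34 ± 0.046, SRSF3 by 0.23 ± 0.040 and the histone variant H2AZ1 by 0.36 ± 0.040, from 657 and 669 CPM to 836 and 870 CPM. The 39 tested histone genes gave 6 higher and 3 lower, 23.1% called, with a median of -0.16, and nucleoporins gave 5 and 5 of 32 (31.2%). Without eIF2A siRNA set 1, 6 hnRNP genes rose, and after removal of the GC and length trend the high mobility group median was 0.05. The RNA interference machinery, with 4 of 15 lower and 0 higher (median 0.00), was called at 26.7%, near the 27.7% of all genes, and the calls included the nuclease SND1 (789 and 782 against 677 and 683 CPM, -0.21 ± 0.039). Chromatin remodellers gave 12 lower and 5 higher of 43 (median -0.06), with HDAC3 at -0.27 ± 0.039 and MTA1 at -0.25 ± 0.039, but 8 and 8 without control set 2 and 11 and 8 with the GC and length trend taken out. Of 395 tested genes named ZNF 37 fell and 24 rose, 15.4% in all, with ZNF598, a sensor of collided ribosomes, at -0.28 ± 0.040. All genes were called at 27.7%, but only 14 of the 395 had at least 100 CPM. Under 10 CPM 10.8% of all genes were called, between 10 and 100 CPM 37.2% and at 100 CPM and up 48.3%.

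Among genes of protein degradation, proteasome subunits gave 18 higher and 3 lower of 43 (median 0.10), among them the abundant PSMB4 (0.15 ± 0.041), PSMB5 (0.16 ± 0.038) and PSMD2 (0.13 ± 0.038), whose calls were lost without eIF2A siRNA set 1 (adjusted p = 0.12, 0.11 and 0.21) or set 2 (0.10, 0.083 and 0.17), that of PSMB4 after removal of the GC and length trend (0.096) and that of PSMD2 with set as a replicate block (0.053). Without eIF2A siRNA set 1 the count was 10 higher and 2 lower, and without set 2 it was 11 and 1. None of the 25 genes for 14-3-3 proteins and protein phosphatases fell and 11 rose (median 0.14), with the adaptor YWHAZ at 236 and 238 CPM with control siRNA and 277 and 275 CPM with eIF2A siRNA (0.22 ± 0.039) and YWHAG at 0.24 ± 0.039. With the GC and length trend taken out that list gave 9 higher and 1 lower, with a median of 0.06, and without eIF2A siRNA set 1 it gave 6 and 0, without set 2 7 and 0. Autophagy genes gave 7 higher and 4 lower of 34 (median 0.13), 32.4% called, with WIPI2 at 0.26 ± 0.041. Ubiquitin-specific proteases gave 2 higher and 5 lower of 47 (14.9%) and F-box proteins and cullins 6 and 7 of 62 (21.0%), against 27.7% of all genes. Only 7 and 3 of these had at least 100 CPM, and under 10 CPM 10.8% of all genes were called. Lysosomal genes gave 10 higher and 6 lower of 39 (41.0% called), with the thioesterase PPT1 at 0.26 ± 0.040 and the galactosidase GLA at -0.34 ± 0.039. Of the proteasome list 48.8% were called and of the 14-3-3 and phosphatase list 44.0%. At 100 CPM and up, where 25 and 12 of their genes lie, 48.3% of all genes were called.

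**Figure D5:**
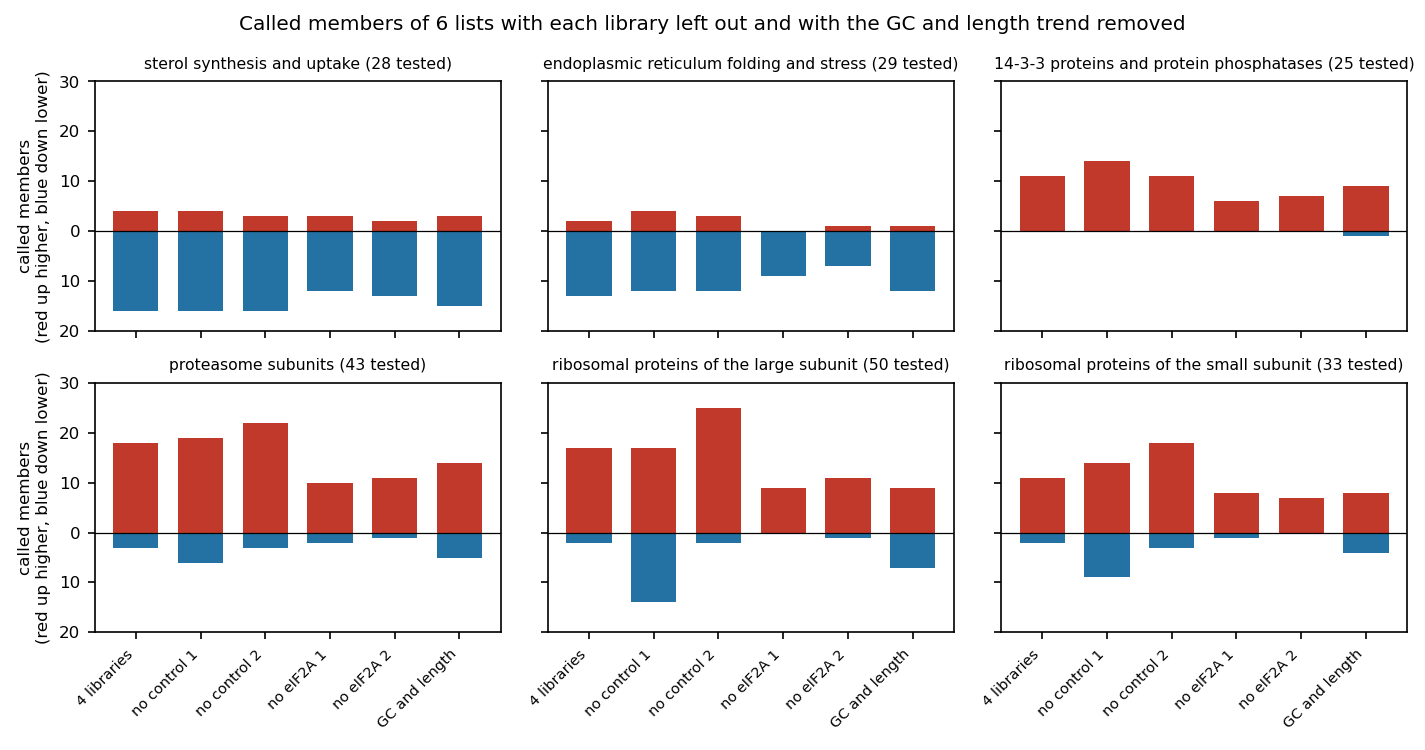
Number of called members (y axes, higher drawn upwards in red, lower drawn downwards in blue) of 6 gene lists with all 4 libraries, with each library left out and after removal of the GC and length trend (x axes). The sterol bars stay at 12 to 16 lower, whereas the large-subunit ribosomal protein bars range from 9 to 25 higher and from 0 to 14 lower.

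Cytoskeletal and cell surface lists were called in both directions. At 100 CPM and up, where 28 of the actin and 9 of the tubulin list genes below lie, 48.3% of all genes were called. Of 54 actin and actin-binding genes 24 rose and 6 fell (median 0.09; 15 and 1 without eIF2A siRNA set 1), and of 23 tubulin and gamma-tubulin complex genes 7 fell and 2 rose (median -0.06), or 55.6 and 39.1% called. CARMIL2, which removes capping protein from actin ends, had the largest rise among genes of at least 10 CPM, from 19.2 and 20.6 CPM to 43.8 and 46.1 CPM (1.17 ± 0.065, adjusted p = 4.2e-10). The actin crosslinker FLNA fell from 1513 and 1378 CPM to 1165 and 1222 CPM (-0.28 ± 0.045, adjusted p = 0.00010). Tubulin TUBB4B went from 1272 and 1408 CPM to 1172 and 1171 CPM (-0.19 ± 0.045) and TUBA1A from 341 and 377 CPM to 296 and 292 CPM (-0.29 ± 0.045), and tubulin genes are similar enough for reads to be shared between them. The intermediate filament gene VIM rose from 550 and 569 CPM to 701 and 709 CPM (0.33 ± 0.039), KRT8 by 0.32 ± 0.041 and KRT18 by 0.22 ± 0.041. Integrin, laminin and collagen genes gave 13 lower and 2 higher of 63, 23.8% called against 27.7% of all genes (median -0.22, and -0.11 with the GC and length trend taken out), with COL18A1 at -0.36 ± 0.045, COL6A1 at -0.29 ± 0.041 and COL4A2 at -0.25 ± 0.040. Cadherins and protocadherins gave 0 higher and 1 lower of 23 (median 0.08).

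Energy metabolism and DNA synthesis showed changes in both directions. Of glycolysis, respiratory and citric acid cycle genes 36.0, 45.6 and 31.2% were called, against 27.7% of all genes. At 100 CPM and up, where 16, 59 and 15 of these genes lie, 48.3% of all genes were called. Of nucleotide synthesis, DNA replication and mitosis genes 45.2, 52.0 and 42.5% were called, and 16, 24 and 14 of them had at least 100 CPM. Glycolysis genes gave 4 higher and 5 lower of 25, with LDHA at 973 and 1035 CPM with control siRNA and 1229 and 1192 CPM with eIF2A siRNA (0.27 ± 0.041). Respiratory complex and ATP synthase genes gave 25 higher and 11 lower of 79 (median 0.03), but 13 and 20 with the GC and length trend taken out (median -0.01) and 24 and 22 without control set 1, and the citric acid cycle 5 higher and 5 lower of 32. Nucleotide synthesis genes gave 6 higher and 8 lower of 31, but 3 and 8 of 16 with at least 100 CPM. DNA replication genes gave 18 higher and 8 lower of 50, or 10 and 4 without eIF2A siRNA set 1 and 10 and 5 without set 2. POLD1 went from 288 and 277 CPM to 196 and 205 CPM (-0.49 ± 0.041) and POLD2, its partner in polymerase delta, fell by 0.33 ± 0.040, whereas RPA2, which coats single-stranded DNA, rose by 0.35 ± 0.042. Homologous recombination and Fanconi genes gave 6 lower and 2 higher of 33, 24.2% called against 27.7% of all genes, with FANCA, FANCG and RAD54L at -0.27 ± 0.043, -0.39 ± 0.049 and -0.26 ± 0.045. Mitosis genes gave 10 higher and 7 lower of 40, with the mitotic cyclin CCNB1 at 0.29 ± 0.039.

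Between 10 and 100 CPM 2013 of 5417 genes (37.2%) were called, 1093 higher and 920 lower. After CARMIL2 the largest rises were in AMH, the anti-Müllerian hormone gene (18.7 and 17.0 against 29.6 and 33.7 CPM, 0.83 ± 0.078), DGAT2, YPEL3, LZIC, HLA-DRB1, TMEM14A and ID3, at 0.60 to 0.71 for the last 6. HLA-DRB1 shares sequence with other class II genes, so its counts are uncertain. After EIF2A the largest falls were in the kynurenine aminotransferase KYAT1 (33.6 and 29.4 against 19.4 and 18.4 CPM, -0.73 ± 0.075), the membrane-bending protein PACSIN2 (83.6 and 81.5 against 50.7 and 51.7 CPM, -0.69 ± 0.049), NPDC1, PXMP2, TMCO6, the protein kinase PKN3 and PABPC1L, at -0.66 to -0.63 for the last 5. The groups did not overlap in any of these genes, as the rule that named them required.

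Under 10 CPM 614 of 5697 genes (10.8%) were called and the sizes were large but poorly measured. PLCH2 had 3 and 7 reads with control siRNA and 36 and 29 with eIF2A siRNA (2.59 ± 0.42), JSRP1 had 6 and 4 against 31 and 31 reads (2.51 ± 0.43) and SIM1 had a log2 fold change of 2.24 ± 0.61. ARMH2 (-2.60 ± 0.72), NRXN3 (-2.01 ± 0.52) and CCL27 (-1.92 ± 0.61) had the largest falls, and each rests on few reads. ARMH2 and CCL27 lost their calls without eIF2A siRNA set 2 (adjusted p = 0.10 and 0.15), CCL27 also without control set 2 (adjusted p = 0.060), and NRXN3 without eIF2A siRNA set 1 (adjusted p = 0.060), and DESeq2 gave none of these 6 genes an adjusted p.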

How the data were processed

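Polyadenylated RNA of 4 HEK293T libraries was analysed, 2 with control siRNA and 2 with eIF2A siRNA, grouped by their labels. The authors deposited raw read counts per RefSeq accession, and per the submitters' processing notes cutadapt, STAR 2.5.2b and the hg19 build were used. Whether counting used strand is not stated in those notes or the labels, so overlapping and antisense genes may share reads. The files hold 19305 accessions, of which 18888 were named from a RefSeq gene table and 225 from GENCODE, and 192 had no name (up to 0.022% of the counts in any library). Rows for reads in no feature (14.95 to 17.68%), ambiguous (0.92 to 0.94%) or not unique (4.36 to 4.54%) were dropped. The 22844053 to 32318668 gene counts left per library make counting error small at high level and large under 10 CPM.

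Counts were scaled by TMM, filtered with filterByExpr and tested with edgeR 4.0.16 (robust quasi-likelihood fit, R 4.3.3, no block), and a call is an adjusted p under 0.05 over all 13294 genes tested. Alternatives were DESeq2 1.42.0, limma 3.58.1 voom, other scalings and filters, all 8 libraries, a replicate block, GC and length offsets (mgcv 1.9.3), a threshold of 0.01 and each library left out, and a crossed block was chosen after seeing the data. The text names EIF2A, the 10 most abundant genes, the 15 largest rises and falls at 100 CPM and up, 8 at 10 to 100 CPM and 3 under 10 CPM among called genes whose groups do not overlap, up to 3 called members with the highest CPM of each list with at least 3 calls, and 13 stress, cap-binding and initiation genes. A few genes under this rule are not reported here. Any other gene is named as chosen after its values were seen. Members, the 67 gene lists and the motifs were chosen with earlier results of these data known.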

Additional observations from a re-analysis of the deposited data

How the results depend on the processing

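The 3679 calls became 2150 with DESeq2 (which gave 3351 genes no adjusted p), 2310 at an adjusted p under 0.01 and 2143 to 4120 with a library left out. The 1052 calls at 100 CPM and up ranged from 599 to 1323 with a library left out, lowest without eIF2A siRNA set 1 (599) and set 2 (633). The 78 calls of at least 2-fold became 2 with DESeq2, 2 with a minimum of 5 CPM in 2 libraries, which removes most of these genes, and 34 at an adjusted p under 0.01. With 3 libraries, the lone library of a group is assumed to vary like the other group. Removing the GC and length trend gave 3399 calls, of which 2797 were among the 3679, and 4 of the 3679 had the other sign. Upper-quartile scaling gave 3700 calls, 1686 higher and 2014 lower. Among uncalled genes, the log2 fold change changed sign for EEF1A1 (-0.005), PDIA3 (-0.014) and PDIA6 (-0.051) with the GC and length trend removed, and with a library left out it ranged from -0.063 to 0.003 for ATF4, from -0.005 to 0.131 for PDIA3 and from -0.006 to 0.052 for PDIA6. The cause of these changes was not tested.

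Set numbers share no stated culture or day, and deviations of same-numbered libraries correlated at -0.166 over 7597 genes, so the numbers were not taken as pairs. A replicate block on set number gave 3561 calls, 85 of at least 2-fold and 924 at 100 CPM and up. A crossed block, chosen after seeing the data, gave 4375, 97 and 1254.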

Other observations

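Other gene groups also held calls in both directions. Of YAP and TEAD targets 39.3% were called and of WNT, Notch, TGF-beta and BMP genes 34.0%, against 27.7% of all genes. Of 28 YAP and TEAD targets 8 rose and 3 fell (median 0.12), and the list holds CCN1 and CCN2, described above, while the transcription factor TEAD2 fell by 0.24 ± 0.053 on the log2 scale. Of 53 WNT, Notch, TGF-beta and BMP genes 10 rose and 8 fell, with the Notch target HEY1 at 243 and 246 against 310 and 302 CPM (0.32 ± 0.039, adjusted p = 4.3e-06) and the WNT effector CTNNB1 at 0.26 ± 0.043. The groups did not overlap for HEY1 or CTNNB1, as for every called gene.

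Transport genes gave calls near the background. Of 263 solute carriers 40 rose and 44 fell (31.9%), against 27.7% of all genes, and of 56 RAB GTPases 12 rose and 4 fell, among them RAB5C of early endosomes (-0.27 ± 0.039). The zinc and iron importer SLC39A14 rose by 0.32 ± 0.046. Of 44 receptor tyrosine kinases and ephrins 3 rose and 7 fell, and TYRO3 went from 153 and 150 CPM to 111 and 116 CPM (-0.42 ± 0.043). The motor subunit DYNC1H1 of cytoplasmic dynein fell by 0.32 ± 0.044, within a list of kinesins and dyneins in which 9 fell and 3 rose of 50, or 6 and 6 without control set 2.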
